A study of Mus musculus with 8 samples.

Results

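The 38 genes described here were listed for the presentation of antigen by MHC class I and class II molecules. They are the rows of the deposited gene table whose name starts with H2-, together with B2m, Cd74, Ciita, Nlrc5, Tap1, Tap2, Tapbp, Tapbpl, Erap1, Cd80, Cd86, Rfx5, Rfxank and Rfxap, and they make up 38 of the 15433 genes in the table. The rule goes by gene name and uses no measured value, but it was set with earlier results of these data known. RNA was sequenced from the gastrocnemius (GST) muscle of 6-month-old female mice, with 1 library per mouse: 4 STIM1+/D84G libraries, which the labels call SAX, and 4 WT libraries. STIM1+/D84G mice (D84G below) carry 1 mutant allele of Stim1, the sensor of calcium in the sarcoplasmic reticulum, with an exchange in its EF hand that leaves store-operated calcium entry switched on. The allele is in the germ line and so is present in muscle fibers and in immune cells alike, and the controls were C57BL/6 mice matched for age and sex. The paper states no strain for the D84G mice and in places speaks of WT littermates. Whether both groups carry the same variants of the H2 genes was not tested. No group had a treatment, and a point mutation leaves the count of Stim1 unable to check the labels. Whole muscle was used, so each value sums fibers, vessels and infiltrating cells, and more cells of a type cannot be told apart from more RNA per cell.

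Class I molecules are made by nearly all nucleated cells. A heavy chain pairs with the light chain B2m and shows peptides of cytosolic proteins to CD8+ T cells, after the peptides have been cut by the proteasome, pumped into the ER by Tap1 and Tap2, trimmed by Erap1 and loaded with the help of Tapbp. Class II molecules are made mainly by dendritic cells, macrophages and B cells. Their alpha and beta chains are held empty by the invariant chain Cd74, receive peptides of endocytosed proteins under the control of H2-DM and H2-O, and are read by CD4+ T cells. Ciita is the master activator of the class II genes and Nlrc5 that of the class I genes, and both act through a promoter module bound by Rfx5, Rfxank and Rfxap. Resting muscle fibers make little class I and class II, and class I on fibers is a known feature of inflamed muscle.

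The promoters of both classes are shown because members of a class share short sequence elements, whether or not their values moved. Of the 38 genes, 24 had an entry among the RefSeq promoter sequences (GRCm38.p6, the build of mm10), in 27 entries. In the 250 bases before the start site, on either strand, 2 elements of the class II module were searched, with letters picked while these sequences were in view: AACNNATG, the core of the X box that the Rfx proteins bind, and TGATTGG, the Y box that NF-Y binds. The X box letters were found in 4 of the 24 genes, H2-Eb1, H2-DMb1, H2-DMb2 and H2-Ob, and in each the Y box began 26 to 29 bases after the X box. Of all 32851 promoter entries, 7.71% held AACNNATG, 7.23% held TGATTGG, and 0.0335% held them in this order on the gene's strand with 20 to 35 bases between their first letters. With both strands counted, TGATTGG was in 14 of the 24 genes, and 10 of them lacked the X box letters. On the gene's strand it was in the 4 genes with the X box letters, in H2-Aa and in the class I gene H2-T22. In H2-D1, H2-M9, H2-Q4, H2-Q6, H2-Q7, H2-T23, Rfx5 and Tap1 it lay only on the other strand. The windows below, all on chromosome 17, are given 5′ to 3′ with position counted from the start site and the matched letters in capitals.
H2-Aa (chr17:34287852-34287918, minus strand, -95 to -29): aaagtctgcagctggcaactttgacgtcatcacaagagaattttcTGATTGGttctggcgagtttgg
H2-Eb1 (chr17:34305761-34305827, plus strand, -106 to -40): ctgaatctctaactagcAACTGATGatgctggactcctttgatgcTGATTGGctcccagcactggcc
H2-DMb1 (chr17:34153083-34153149, plus strand, -108 to -42): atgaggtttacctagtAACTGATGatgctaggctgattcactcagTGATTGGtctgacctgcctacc
H2-DMb2 (chr17:34145112-34145178, plus strand, -137 to -71): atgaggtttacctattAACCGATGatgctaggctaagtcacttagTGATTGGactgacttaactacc
H2-Ob (chr17:34238801-34238867, plus strand, -104 to -38): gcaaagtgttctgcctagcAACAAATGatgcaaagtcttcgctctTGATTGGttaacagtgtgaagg

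In the class I promoters the letters searched were GGGATTCCC, a site for NF-kappa B, TTTCNCTTC, an element read by interferon regulatory factors, and TGACG, a part of the class I counterpart of the X box. H2-K1, H2-D1, H2-Q6 and H2-Q7 held both of the first elements, with the interferon element beginning 19 or 20 bases after the kappa B site. Of all entries 0.0213%, 7 in number, held both at any spacing and on either strand, and those of these 4 genes are among them. The spacing itself was not counted over all entries. GGGATTCCC was in 0.301% of entries, and TTTCNCTTC was found in 657 of the 32851. H2-Q4, H2-Q10 and H2-M3 held TTTCNCTTC without GGGATTCCC. TGACG was present in 9 of the 24 genes and in 17.8% of all entries. No matched letters of 1 element overlapped those of another in the windows printed. A match is a description of sequence and was not tested for binding.
H2-K1 (chr17:34000379-34000472, minus strand, -125 to -32): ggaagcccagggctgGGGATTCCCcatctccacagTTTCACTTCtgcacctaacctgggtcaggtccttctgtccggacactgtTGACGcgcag
H2-D1 (chr17:35262909-35263002, plus strand, -185 to -92): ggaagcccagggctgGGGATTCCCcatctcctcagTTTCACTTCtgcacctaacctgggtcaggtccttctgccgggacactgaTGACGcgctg
H2-Q4 (chr17:35379429-35379522, plus strand, -188 to -95): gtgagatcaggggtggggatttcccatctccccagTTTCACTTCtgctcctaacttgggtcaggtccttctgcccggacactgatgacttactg
H2-Q7 (chr17:35439007-35439100, plus strand, -148 to -55): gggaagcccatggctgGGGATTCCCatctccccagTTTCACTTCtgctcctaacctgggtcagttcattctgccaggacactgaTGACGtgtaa

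The values, called normalized counts here, are numbers of reads per gene after division by a size factor of each library. No correction for the length of a gene is in them. Reads in the listed genes ranged from 27481177 to 35018732 in D84G libraries and from 28698738 to 33661535 in WT libraries. Limma was run on log2(normalized count + 0.1), with p values adjusted over all 15433 genes and a threshold of 0.05. The table moved widely in both directions, with 25.0% of all genes higher and 24.4% lower in D84G muscle. Counts of members and of list genes below stand against these shares. In 23.0% of genes all 4 D84G libraries lay above all 4 WT libraries, and in 23.0% all lay below. Libraries scaled to the total of all listed genes, which large muscle transcripts dominate, gave 9480 genes higher and 761 lower, against 3859 higher and 3765 lower with the size factors, and shifted the median over all genes by 0.35 on the log2 scale. The column names carry either of 2 numbers, whose meaning is not stated: D84G replicate 1 and WT replicates 1 and 2 share a number (set A), and the other 5 libraries share the other number (set B).

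Of the 38 genes, 18 were higher in D84G muscle, 5 were lower and 15 did not pass. The median log2 fold change was 0.47 over the 38 genes and 0.01 over all genes. All 3 class II chains rose, as did 7 of the 16 class I genes, 5 of the 10 loading factors and 3 of the 7 regulators and costimulators. Among the 16 class I genes, GENCODE lists H2-K2 and H2-M6-ps as pseudogenes and H2-Q5 and H2-T10 as polymorphic pseudogenes, and none of these rose. Without overlap between the groups, 18 of the 38 genes lay above WT in every D84G library and 5 below.

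**Figure D1:**
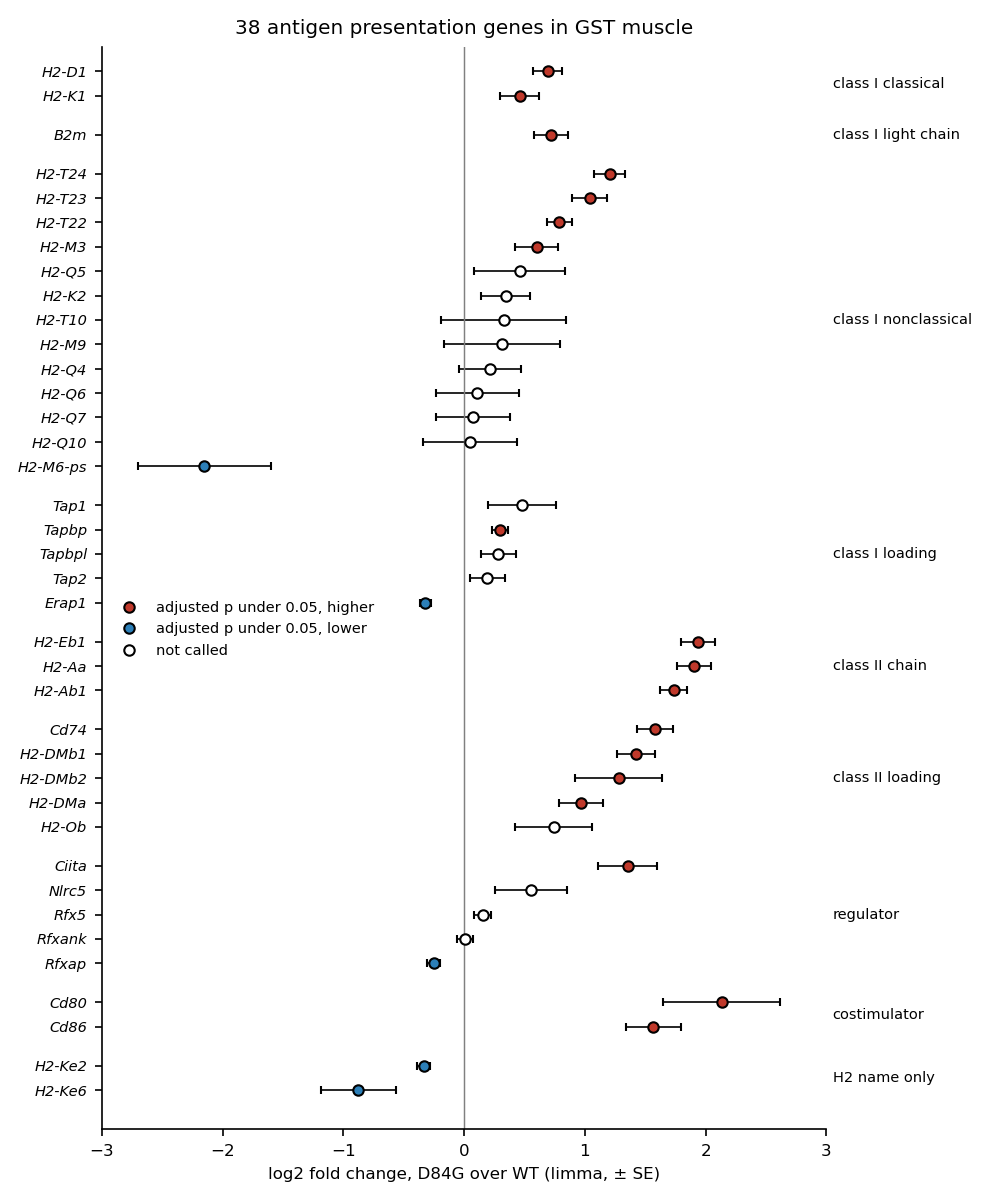
Log2 fold change of D84G over WT muscle (x axis, limma, ± SE, 4 libraries per genotype) for each of the 38 genes, grouped by role (y axis), with filled points for genes past the adjusted p threshold. The class II chains sat between 1.73 and 1.94, while the class I genes that passed upward sat between 0.46 and 1.21.

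The 3 class II chains rose by similar folds. H2-Aa, the alpha chain of the I-A molecule (mm10, chr17:34282744-34287823), had 1947, 2359, 2551 and 2889 normalized counts in D84G muscle, against 805, 589, 696 and 524 in WT muscle. The groups lay far apart, with a fold of 3.73 between the means (log2 fold change 1.90 ± 0.14 SE, adjusted p = 1.86e-06). Its beta chain H2-Ab1 had 1622, 1919, 1984 and 2242 normalized counts in D84G muscle, against 652, 574, 639 and 473 in WT muscle, a fold of 3.32 (log2 fold change 1.73 ± 0.11 SE, adjusted p = 9.36e-07).

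H2-Eb1, the beta chain of I-E, had 1577, 1861, 1918 and 2211 normalized counts in D84G muscle, against 640.3, 435, 522 and 397 in WT muscle, a fold of 3.79 (log2 fold change 1.94 ± 0.14 SE, adjusted p = 1.83e-06). C57BL/6 mice, the strain stated for the controls, make no I-E on the cell surface, since they lack a working alpha chain, yet transcribe the beta chain. The alpha chain was not analysed here. The same D84G libraries were high and low in all 3 chains, with replicate 4 highest and replicate 1 lowest. Per library, H2-Eb1 stood in a narrow ratio to H2-Aa, with 81.0, 78.9, 75.2 and 76.5% in D84G libraries, against 79.5, 73.8, 74.9 and 75.8% in WT libraries.

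Of the 5 class II loading genes 4 rose, each with a smaller log2 fold change than any of the chains. Cd74, the invariant chain, was the most abundant of the class II genes and had 3362, 3713, 4279 and 5025 normalized counts in D84G muscle, against 1684, 1243, 1501 and 1068 in WT muscle. No D84G library overlapped WT, and the fold was 2.98 (log2 fold change 1.58 ± 0.15 SE, adjusted p = 9.13e-06). H2-DMa, the alpha chain of the peptide exchange factor H2-DM, had 131, 156, 189.9 and 222 normalized counts in D84G muscle, against 113, 74.7, 93.2 and 73.7 in WT muscle, a fold of 1.97 (log2 fold change 0.97 ± 0.18 SE, adjusted p = 0.00114).

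H2-DMb1, a beta chain of H2-DM, had 116, 125, 130.1 and 161 normalized counts in D84G muscle, against 65.2, 47.0, 44.5 and 43.0 in WT muscle, a fold of 2.67 (log2 fold change 1.42 ± 0.16 SE, adjusted p = 2.88e-05). Its neighbour and close copy H2-DMb2 rested on 80 reads in D84G and 27 in WT libraries and was also higher (log2 fold change 1.28 ± 0.36 SE, adjusted p = 0.0126), though not after quantile normalization (adjusted p = 0.0978). H2-Ob, the beta chain of H2-O, which restrains H2-DM, had 12.5, 9.40, 14.5 and 14.1 normalized counts in D84G muscle, against 9.15, 8.44, 7.59 and 5.12 in WT muscle. All 4 D84G values of H2-Ob lay above WT, but the gene did not pass (log2 fold change 0.74 ± 0.32 SE, adjusted p = 0.0737), and H2-Oa was not analysed here.

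**Figure D2:**
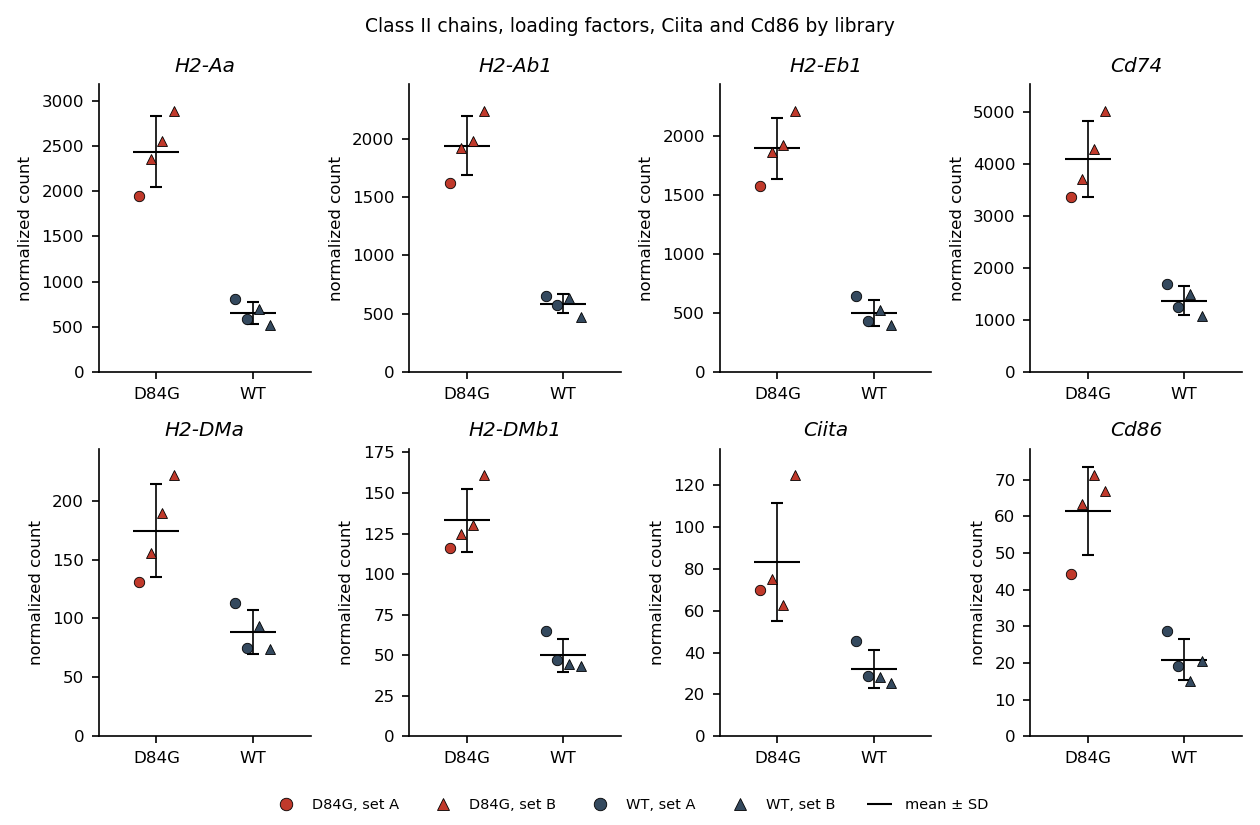
Normalized counts (y axis) of the class II chains, their loading factors, Ciita and Cd86 in each library, with D84G left and WT right, circles for set A and triangles for set B, and bars for mean ± SD. In all 8 genes the 4 D84G points lie above the 4 WT points, and Ciita has 1 WT library, at 45.7, apart from the rest.

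Ratios within a library set the loading factors against the chains. These ratios, 10 in all, were chosen after the values were seen, and none passed 0.05 after adjustment. Cd74 stood to H2-Aa at 173, 157, 168 and 174% in D84G libraries, against 209, 211, 216 and 204% in WT libraries. For H2-DMa over H2-Aa the values were 6.71, 6.61, 7.45 and 7.69% in D84G libraries, against 14.1, 12.7, 13.4 and 14.1% in WT libraries, with means of 7.11% in D84G and 13.5% in WT libraries. H2-DMb1 over H2-Aa gave 5.97, 5.28, 5.10 and 5.58% in D84G libraries, against 8.10, 7.98, 6.39 and 8.20% in WT libraries. In these 3 ratios every D84G library lay below every WT library (exact permutation test, two-sided, p = 0.0286, the smallest the design allows, and 0.0952 after adjustment over the 10 ratios).

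The summed counts of the class II chains stood to those of the class I genes at 44.3, 52.6, 51.8 and 55.3% in D84G libraries, against 18.5, 18.2, 28.0 and 21.7% in WT libraries. No D84G library overlapped WT in this ratio (exact permutation test, p = 0.0286, adjusted 0.0714 over the 10 ratios set in the design, which also hold those to leukocyte markers). Per kilobase of exon, where genes can be set side by side, H2-Aa, H2-Ab1 and H2-Eb1 had mean levels of 642, 756 and 973 normalized counts in D84G muscle, against 172, 227 and 256 in WT muscle. On the same scale H2-K1 and H2-D1 had 996 and 1311 in D84G muscle, against 746 and 821 in WT muscle. B2m was the highest of all members per kilobase in both groups, at 4541 in D84G and 2815 in WT muscle. The lengths are the union of annotated exons and can exceed the length of the main transcript.

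Markers of leukocytes and macrophages moved with the class II genes. All 4 pan-leukocyte markers were higher in D84G muscle, with summed counts of 978.0 to 1594 in D84G libraries and 334.6 to 409 in WT libraries, and so were all 13 macrophage markers, with sums of 7634 to 13230 in D84G and 2973 to 3658 in WT libraries. Ptprc, the common leukocyte antigen CD45, had 282, 317, 374 and 399 normalized counts in D84G muscle, against 111, 79.5, 105 and 93.1 in WT muscle, and its D84G libraries stood in the same order as for H2-Aa. Dendritic cell markers were higher in 6 of 9 cases, among them Itgax (log2 fold change 2.60 ± 0.34 SE, adjusted p = 1.05e-04), Ccr7 (3.60, adjusted p = 0.00906), Clec9a (1.82, adjusted p = 0.0101) and Batf3 (1.74, adjusted p = 7.72e-04), with sums of 354.5 to 539 in D84G and 297.3 to 347 in WT libraries. Zbtb46, the most abundant dendritic cell marker listed and the largest part of these sums, did not pass. Its mean was 233 in both groups (log2 fold change 0.01 ± 0.13 SE, adjusted p = 0.968). Clec9a was scarce, with means of 8.42 in D84G and 2.54 in WT muscle. The part of leukocytes, macrophages and dendritic cells in the class II result was not tested beyond the ratios that follow.

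Relative to Ptprc, H2-Aa was at 689, 743, 682 and 724% in D84G libraries, against 726, 741, 662 and 563% in WT libraries, and the groups overlapped (exact permutation test, p = 0.457, adjusted 0.607). Over Adgre1, the macrophage receptor F4/80 listed as Emr1, H2-Aa gave 777, 656, 612 and 659.8% in D84G libraries, against 726, 611, 713 and 632% in WT libraries, again overlapping (p = 0.971, same exact test). Over Cd68, a lysosomal protein of macrophages, the values were 565, 659, 619.7 and 698% in D84G libraries, against 1051, 923, 1189 and 800.0% in WT libraries. Every D84G library was lower, as it was for H2-Ab1 and H2-Eb1 over Cd68 (exact permutation p = 0.0286 each, adjusted 0.0714). Cd68 itself rose 5.78-fold (log2 fold change 2.53 ± 0.10 SE, adjusted p = 8.19e-08), more than the class II chains.

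**Figure D3:**
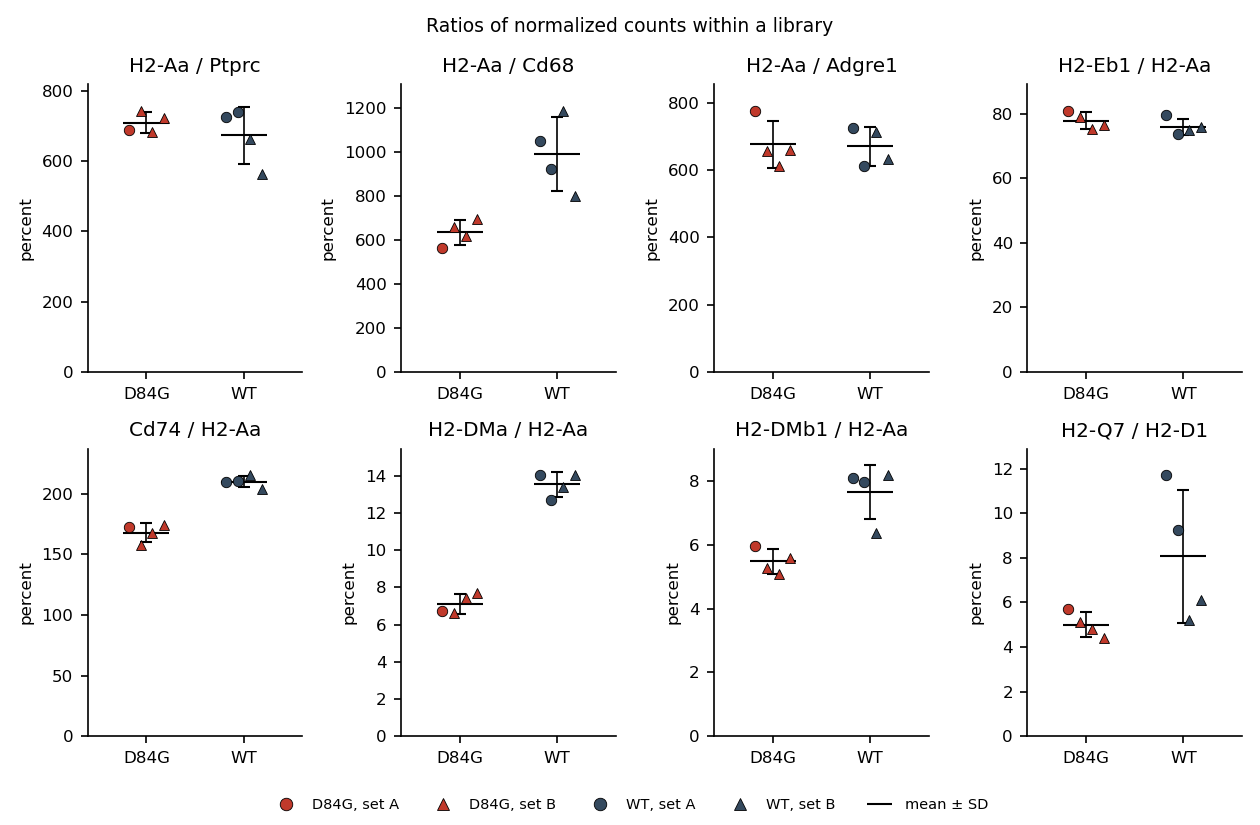
Ratios of normalized counts within a library, in percent (y axis), for D84G (left) and WT (right), with mean ± SD as bars and the marker showing set A or B. H2-Aa over Ptprc overlaps between the groups at means of 710% in D84G and 673% in WT, while H2-DMa over H2-Aa does not, at 7.11% in D84G and 13.5% in WT.

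Markers of B, T and NK cells were covered in part. Of 7 B cell markers 2 were analysed here: Ighm, the immunoglobulin mu heavy chain, had 614, 416, 445 and 466 normalized counts in D84G muscle, against 1759, 2179, 1802 and 1486 in WT muscle and was lower (log2 fold change -1.90 ± 0.13 SE, adjusted p = 1.31e-06), and Cd79b did not pass (adjusted p = 0.128). Of 12 T cell genes 6 were analysed here and 3 were higher: Cd3e, with 24 reads in the 4 D84G libraries and 2 in the 4 WT libraries, Cd3g, with 37 in D84G and 2 in WT, and Ctla4, with 26 in D84G and 4 in WT. The co-receptor Cd4 did not pass (log2 fold change 0.93 ± 0.58 SE, adjusted p = 0.207). Cd28 did not pass either (log2 fold change -0.14 ± 0.12 SE, adjusted p = 0.361). With means of 145 in D84G and 160 in WT muscle, Cd28 makes up most of the T cell sums given below. Both NK markers analysed here, of 6, were higher: Klrk1 with 90 reads in D84G and 9 in WT, and Klrb1c with 23 in D84G and 3 in WT. Summed counts ran from 427.0 to 619 in D84G and from 1488 to 2185 in WT libraries for the B cell list, for the T cell list from 161 to 214 in D84G and from 171 to 213 in WT, and for the NK list from 19.6 to 30.0 in D84G and from 2.17 to 4.82 in WT. Endothelial markers, which label cells that can carry class I and class II, showed none higher and 2 of 6 lower (24.4% of all genes were lower). Their sums were 8045 to 9487 in D84G and 8928 to 10310 in WT libraries.

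Among the regulators, Ciita moved with the class II genes. Ciita had 70.1, 75.2, 62.7 and 125 normalized counts in D84G muscle, against 45.7, 28.9, 28.2 and 25.6 in WT muscle, a fold of 2.59 (log2 fold change 1.36 ± 0.24 SE, adjusted p = 8.73e-04). The groups did not overlap, and D84G replicate 4 and WT replicate 1 were each the highest of their own group. Rfx5, the DNA-binding subunit of the X box complex, had 368, 336, 299 and 325 normalized counts in D84G muscle, against 299.6, 295, 286 and 308 in WT muscle and did not pass (log2 fold change 0.16 ± 0.07 SE, adjusted p = 0.0900), although it did after scaling to the total (adjusted p = 7.80e-05), after scaling without the 50 most abundant genes (0.00830) and without D84G replicate 3 (0.0355).

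Rfxap, which holds that complex together, had 499, 504, 470.4 and 464 normalized counts in D84G muscle, against 544, 558, 586 and 622 in WT muscle. It was lower in every D84G library (log2 fold change -0.25 ± 0.06 SE, adjusted p = 0.00372), but its sign turned after scaling to the total (log2 fold change 0.10) and it lost the call without the 50 most abundant genes (adjusted p = 0.0702). Rfxank, the remaining subunit, had a log2 fold change of 0.01 ± 0.07 SE (adjusted p = 0.922).

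The costimulators that antigen-presenting cells show together with class II were both higher. Cd86 had 44.2, 63.5, 71.3 and 67.0 normalized counts in D84G muscle, against 28.6, 19.3, 15.2 and 20.5 in WT muscle, a fold of 2.94 (log2 fold change 1.57 ± 0.23 SE, adjusted p = 1.99e-04). Cd80, the partner ligand of CD28, had 7.69, 13.3, 10.604 and 9.69 normalized counts in D84G muscle, against 2.29, 1.21, 4.34 and 2.05 in WT muscle (log2 fold change 2.13 ± 0.48 SE, adjusted p = 0.00372) and rested on 47 reads in D84G and 9 in WT libraries.

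Other genes of the class II route, from a list of 8 endosomal factors, were higher in 6 cases and lower in 1. Ctss, the cathepsin that makes the last cuts in the invariant chain, had 624, 727, 803 and 981 normalized counts in D84G muscle, against 120.1, 135, 180.0 and 150.4 in WT muscle, a fold of 5.35 (log2 fold change 2.42 ± 0.15 SE, adjusted p = 5.80e-07). The cathepsin Ctsh (1.17, adjusted p = 1.43e-05) and the asparagine endopeptidase Lgmn (0.90, adjusted p = 2.73e-07) were also higher on the log2 scale. Sppl2a, the intramembrane protease that clears the remnant of Cd74, was lower (log2 fold change -0.37 ± 0.04 SE, adjusted p = 3.92e-05). March1, a ligase that takes class II off the surface of antigen-presenting cells, rose 4.76-fold (log2 fold change 2.34 ± 0.32 SE, adjusted p = 1.32e-04), and March8, its relative of wide expression, did not pass (log2 fold change -0.09 ± 0.05 SE, adjusted p = 0.122). Of the 4 ligases on that list, 2 were analysed here.

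Class I genes rose less, and less evenly. The classical heavy chain H2-D1 (mm10, chr17:35262730-35267499) had 3025, 3287, 3500.3 and 3715 normalized counts in D84G muscle, against 2712, 2137, 1854 and 1765 in WT muscle, a fold of 1.597 (log2 fold change 0.69 ± 0.12 SE, adjusted p = 6.11e-04). The other classical chain, H2-K1, had 2883, 2754, 2910.4 and 3159 normalized counts in D84G muscle, against 3067, 2324, 1711 and 1663 in WT muscle. WT replicate 1 lay inside the D84G range for H2-K1, and the fold was 1.34 (log2 fold change 0.46 ± 0.16 SE, adjusted p = 0.0339). This call was narrow: the adjusted p was 0.0508 with edgeR, 0.110 with DESeq2, and between 0.0537 and 0.0923 without any 1 of the 4 D84G replicates or without WT replicate 3 or 4.

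B2m, the light chain shared by all class I molecules, lies outside the complex on chromosome 2 and had 3626, 3709.8, 3935 and 4351 normalized counts in D84G muscle, against 3171, 2629, 1937 and 1947 in WT muscle, a fold of 1.61 (log2 fold change 0.72 ± 0.14 SE, adjusted p = 0.00149). The heavy chains of the class I family are close copies of each other, so reads may be split between them and values of single H2-K, D, Q and T genes are uncertain to that degree. B2m has no such copy.

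The nonclassical heavy chains fell into separate patterns. H2-T23, which encodes Qa-1, a ligand of NK receptors, had 399, 391, 442 and 452 normalized counts in D84G muscle, against 273, 207, 203 and 151 in WT muscle, a fold of 2.02 without overlap (log2 fold change 1.04 ± 0.15 SE, adjusted p = 1.52e-04). H2-T22 (1.71-fold, adjusted p = 1.19e-04), H2-T24 (2.32-fold, adjusted p = 2.04e-05) and H2-M3 (1.49-fold, adjusted p = 0.0158, 0.162 after quantile normalization and 0.0506 without D84G replicate 4) were higher too. H2-T22 is bound by some gamma delta T cells, and H2-M3 shows formylated bacterial peptides.

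In contrast, none of the 5 Q region genes passed. H2-Q4 had 485, 446, 480.1 and 465 normalized counts in D84G muscle, against 688, 528, 263 and 279 in WT muscle, with the D84G values in the gap between the WT values (log2 fold change 0.21 ± 0.26 SE, adjusted p = 0.526). H2-Q6 and H2-Q7, which make Qa-2, showed the same arrangement, named after their values were seen: H2-Q7 had 173, 168, 168 and 163 normalized counts in D84G muscle, against 318, 198, 96.5 and 107 in WT muscle (log2 fold change 0.07 ± 0.31 SE, adjusted p = 0.869, with a negative sign under edgeR, DESeq2 and quantile normalization). H2-Q7 over H2-D1 stood at 5.72, 5.10, 4.79 and 4.39% in D84G libraries, against 11.7, 9.25, 5.205 and 6.09% in WT libraries, and the groups overlapped (exact permutation test, p = 0.0571, adjusted 0.114).

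H2-M6-ps, a pseudogene, was the only class I row that was lower, with 3.84, 3.13, 5.78 and 0.881 normalized counts in D84G muscle, against 16.01, 14.5, 13.01 and 9.21 in WT muscle (log2 fold change -2.15 ± 0.55 SE, adjusted p = 0.00739), resting on 15 reads in D84G and 47 in WT libraries. H2-K2, H2-M9, H2-Q5, H2-Q6, H2-Q10 and H2-T10 did not pass, with log2 fold changes between 0.05 and 0.46.

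**Figure D4:**
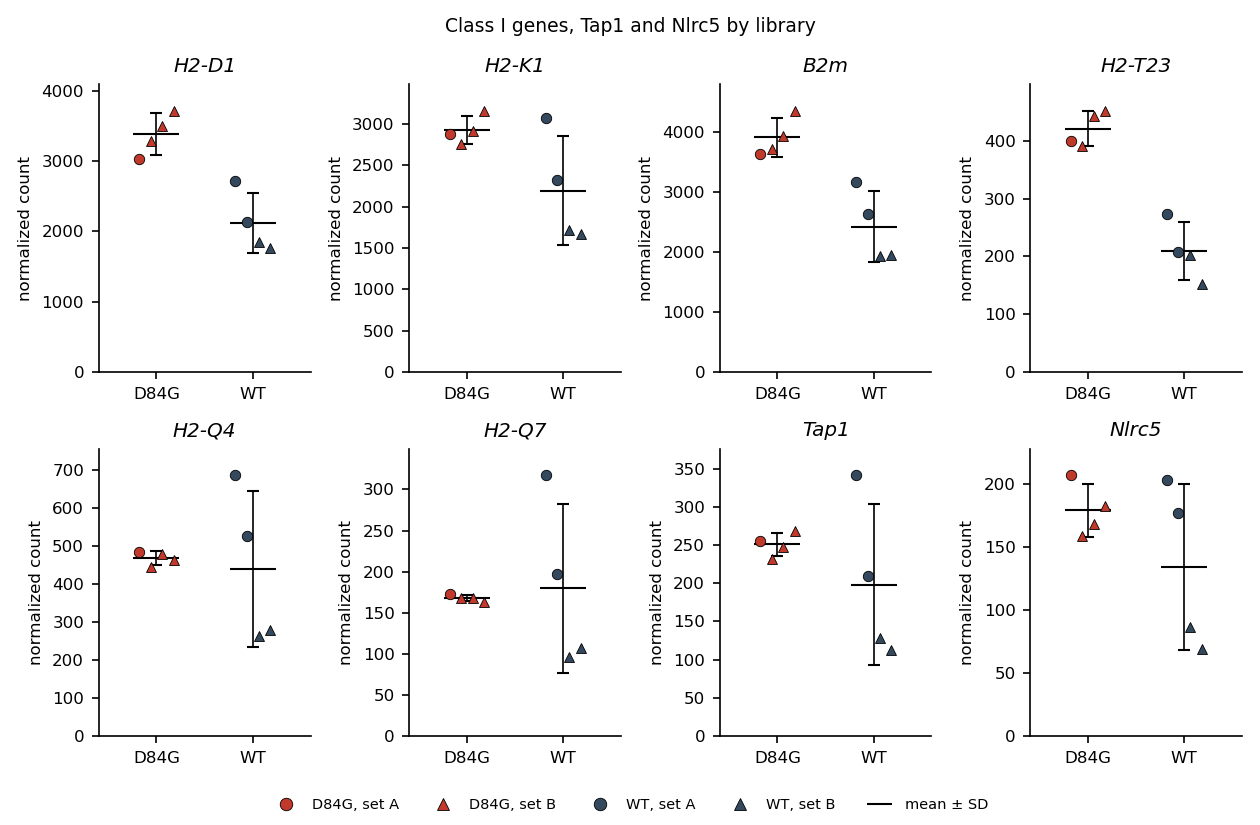
Normalized counts (y axis) of class I genes, Tap1 and Nlrc5 in each library, with D84G left and WT right, circles for set A and triangles for set B, and bars for mean ± SD. In H2-Q4, H2-Q7 and Tap1 the D84G libraries lie close together, at 446 to 485, 163 to 173 and 232 to 268, inside the wider WT range.

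Among the class I loading factors, 1 of 5 was higher and 1 was lower, near the shares of all genes (25.0% and 24.4%). Tapbp, or tapasin, which bridges Tap1 and Tap2 to the heavy chain, had 1414, 1378, 1386 and 1515 normalized counts in D84G muscle, against 1329.8, 1170.3, 1065 and 1089 in WT muscle, a fold of 1.22 (log2 fold change 0.30 ± 0.07 SE, adjusted p = 0.00409). Tap1 had 256, 232, 248 and 268 normalized counts in D84G muscle, against 342, 209.7, 129 and 113 in WT muscle and did not pass (log2 fold change 0.48 ± 0.28 SE, adjusted p = 0.182). Tap2 had 411, 372, 426 and 413 normalized counts in D84G muscle, against 496, 365, 308 and 283 in WT muscle and did not pass either (log2 fold change 0.19 ± 0.14 SE, adjusted p = 0.299). Tapbpl, a second peptide editor, had a log2 fold change of 0.28 (adjusted p = 0.128).

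Erap1, the aminopeptidase that trims peptides in the ER, had 573, 621, 599.6 and 616 normalized counts in D84G muscle, against 733, 753, 768 and 757 in WT muscle. It was lower without overlap, at 0.80 of WT (log2 fold change -0.32 ± 0.05 SE, adjusted p = 1.58e-04), but its log2 fold change was 0.026 after scaling to the total. Nlrc5 had 208, 159, 169 and 182 normalized counts in D84G muscle, against 204, 177, 86.7 and 69.6 in WT muscle and did not pass (log2 fold change 0.55 ± 0.30 SE, adjusted p = 0.148).

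Without WT replicate 1, Tap1 (adjusted p = 0.00507), Tap2 (0.00946), Tapbpl (0.0292), Nlrc5 (0.0301), H2-Q5 (0.0283) and H2-K2 (0.0412) passed, and the number of members higher was 24 instead of 18. With the number in the column name as a term, Tap1 (adjusted p = 0.0258), Tapbpl (0.0291) and Nlrc5 (0.00413) passed. Scaling to the total also brought Tap1, Tap2, Tapbpl, Nlrc5, H2-K2, H2-Ob and Rfxank past the threshold as higher (adjusted p 0.00109 to 0.0243).

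The proteasome cuts peptides for class I. Of 5 immunoproteasome genes 1 was higher, a share near the 25.0% of all genes: Psme2, a subunit of the PA28 activator (log2 fold change 0.32 ± 0.06 SE, adjusted p = 0.00189). The catalytic subunit Psmb8 did not pass (log2 fold change 0.50 ± 0.22 SE, adjusted p = 0.0814). Of 5 genes listed as ER chaperones and enzymes for class I loading, 4 rose, and these serve all folding in the ER. They were Hspa5 (2.35-fold, adjusted p = 8.19e-08), Calr (1.88-fold, adjusted p = 1.55e-07), Canx (1.64-fold, adjusted p = 1.47e-06) and Pdia3 (1.63-fold, adjusted p = 1.62e-05). Hspa5 is not specific to the loading step, and the paper measured it as a gene of ER stress. The fifth gene on that list is Sppl2a, given above for the class II route. Of 11 genes of interferon signalling, 5 were higher and 3 lower, where 25.0% of all genes were higher and 24.4% lower. The inhibitor Socs1 (1.21, adjusted p = 0.00152) and the receptor chain Ifnar2 (0.77, adjusted p = 7.27e-04) rose on the log2 scale. The kinase Jak2 (-0.76, adjusted p = 7.04e-07) and the interferon gamma receptor chain Ifngr2 (-0.60, adjusted p = 1.03e-04) were lower.

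In WT muscle the class I genes differed between libraries with different numbers in the column names. In WT muscle, set A (replicates 1 and 2) was set against set B (replicates 3 and 4) in a limma fit with 4 cells of genotype and number, chosen after the values were seen. Only 0.318% of all genes, 49 in number, were higher in set A, and 7 of them were among the 38: H2-K1 (1.598-fold), B2m (1.49-fold), H2-Q4 (2.24-fold), H2-Q6 (2.74-fold), H2-Q7 (2.53-fold), Tap1 (2.28-fold) and Nlrc5 (2.44-fold). Their adjusted p values lay between 0.00612 (H2-Q4) and 0.0369 (H2-K1 and Tap1). None of the 3 class II chains, 13 macrophage markers and 4 pan-leukocyte markers was called between these WT libraries. Psmb8 (1.91-fold), Psme1 (1.29-fold) and Cd274 (3.17-fold) were.

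Both WT libraries of set A lay above both of set B for 12 of the 16 class I genes and 21 of the 38 members, against 20.7% of all genes. The count of 7 rested on WT replicate 1 more than on the others. Without it 1 member, H2-Q4, was called, and without WT replicates 2, 3 and 4 the counts were 9, 3 and 3. EdgeR called 4 (H2-Q4, H2-Q6, H2-Q7 and Nlrc5). The D84G libraries, with only replicate 1 in set A, did not show this spread. Over the 16 class I genes the median log2 fold of set A over set B was 0.02 in D84G and 0.59 in WT muscle. Whether the number or WT replicate 1 goes with the class I levels was not tested further.

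Within set B, 3 D84G against 2 WT libraries, 26 of the 38 members were higher (21.4% of all genes), among them Nlrc5 (2.18-fold), Tap1 (2.06-fold), B2m (2.06-fold), H2-K1 (1.74-fold), H2-Q4 (1.71-fold) and H2-Q7 (1.63-fold). The genes named here had already been called between the WT sets, with set B lower. The same 2 WT libraries enter both comparisons, so these folds are not a separate result. Within set A, 1 D84G against 2 WT libraries, 8 members were higher (11.7% of all genes): the 3 class II chains, Cd74, H2-DMb1, H2-T22, H2-T23 and H2-T24. The lone D84G library there is assumed to vary like the other cells. H2-Q4 had log2 fold changes of 0.77 within set B and -0.31 within set A. The class II chains were higher within both sets, with H2-Aa at 2.10 in set B and 1.499 in set A on the log2 scale.

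The difference between the effects within the 2 sets was tested as an interaction. No gene of 15433 passed with limma (857 had an unadjusted p under 0.05) or with edgeR (825), and of the 38 members 14 had an unadjusted p under 0.05 with limma. A different genotype effect in the 2 sets was thus not shown for any member. With only D84G replicate 1 in set A, this test could not decide whether the effect was the same in both sets.

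**Figure D5:**
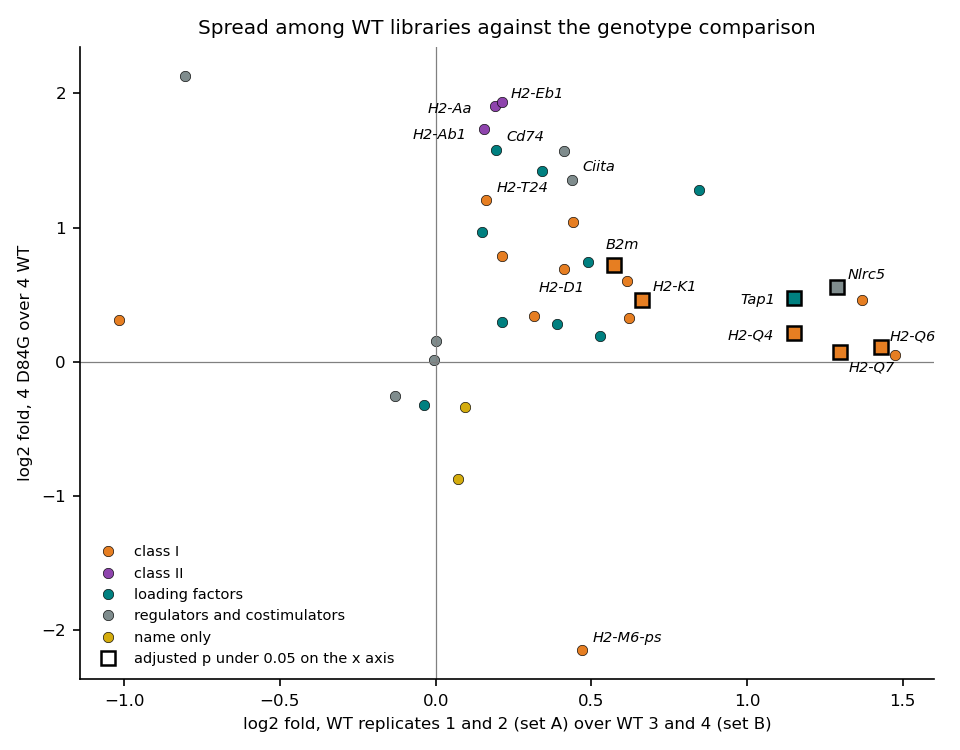
Log2 fold change of WT replicates 1 and 2 (set A) over WT replicates 3 and 4 (set B) on the x axis against log2 fold change of D84G over WT on the y axis, 1 point per gene, coloured by role, with squares for the 7 genes called on the x axis. The class II chains stand high on the y axis and near 0.2 on the x axis, and H2-Q4, H2-Q6 and H2-Q7 stand above 1.1 on the x axis and near 0 to 0.2 on the y axis. Both axes share the WT libraries.

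A pair of genes entered by name alone. H2-Ke2, listed in GENCODE as the prefoldin subunit Pfdn6, had 603, 602, 587 and 564 normalized counts in D84G muscle, against 798, 739, 757 and 683 in WT muscle and was lower (log2 fold change -0.34 ± 0.06 SE, adjusted p = 4.95e-04), with a log2 fold change of 0.014 after scaling to the total. H2-Ke6, a steroid dehydrogenase, had 9.61, 14.1, 6.75 and 16.7 normalized counts in D84G muscle, against 18.3, 24.1, 21.7 and 18.4 in WT muscle and was lower (log2 fold change -0.87 ± 0.31 SE, adjusted p = 0.0361). The call for H2-Ke6 was lost with edgeR (adjusted p = 0.0570), with DESeq2 (0.0869), under scaling to the total (0.155) and without the 50 most abundant genes (0.0657), and without D84G replicate 1 or 3 or any 1 WT replicate (0.0501 to 0.0922). Both lie among the MHC genes on chromosome 17 and neither presents antigen.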

How the data were processed

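Total RNA of GST muscle was sequenced by the authors with 50 bp paired-end reads. The library kit is a stranded one for mRNA in the methods but a SMARTer one in the labels, which also give mm10. The aligner, read counter and annotation are not given in the sources used here. The signal values, deposited under the name RPKM, turned out to be reads per gene over a size factor of the library: divided by the worth of 1 read, 100% of the values of each library came out whole (tolerance 0.01). The table also holds the authors' own comparison, a fold (ratio) column, its log2, 2 score columns (a standard error and a test statistic) and deposited p-value columns, none of which was used. The label SAX was matched to STIM1+/D84G from the series title and the paper.

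Genes were tested with limma 3.58.1 (trend) in R 4.3.3 on log2(value + 0.1), with Benjamini-Hochberg adjustment over 15433 genes at 0.05. A minimum mean of 0.5 removed 0 genes. This test, planned when the unit was not known, was kept, and edgeR 4.0.16 and DESeq2 1.42.0 on the recovered whole reads were alternatives, as were other pseudocounts, filters and scalings, a term for the number in the column names (sets A and B), and leaving out each library. Ratios were tested by exact permutation over the 70 assignments of 4 against 4 (scipy 1.17.1, two-sided), with a smallest p of 0.0286. The procedure was tested on simulated data. P values measure the spread between the libraries of these mice.

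Same-numbered libraries of the 2 genotypes correlated at 0.213, 0.161, 0.150 and 0.123 across the 10155 genes whose mean reached 100, after group means were removed, so a replicate block was fitted. Some pairs with different numbers correlated more, with 0.371 for D84G 1 and WT 2, 0.222 for D84G 3 and WT 4 and 0.188 for D84G 4 and WT 3, all within set A or set B. The labels do not say that a number marks a shared litter or day. The members and lists were chosen with earlier results of these data known. Values in every library are given for the main class I and class II genes, loading factors, regulators and costimulators, the 2 most abundant nonclassical genes and any member that was lower, and from each list up to 4 genes by size of change among those that passed, with the largest of each direction. Other list genes were named after their values were seen. Coordinates are from GENCODE vM21 (mm10).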

Additional observations from a re-analysis of the deposited data

Results flagged for a closer look

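Of 76 groups of 4 libraries checked, 2 for each of the 38 genes, 1 held a library far from the other 3. Ciita in WT replicate 1 had 45.7 normalized counts, against 25.6 to 28.9 in the other WT libraries, and the gap was 0.834 of the range, just past Dixon's critical value for 4 values. Such a gap arises by chance in about 1 of 20 groups. The 4 D84G values of Ciita, 62.7 to 125, lay above it.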

How the results depend on the processing

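With the replicate block all 38 members kept their call, with 18 higher and 5 lower and H2-Aa at a log2 fold change of 1.90, and the class II to class I ratio could reach no p below 0.125. The median over all genes shifted on the log2 scale by 0.01 with TMM, by 0.35 with scaling to the total, by 0.12 when the 50 most abundant genes were left out of the scaling and by -0.08 with quantile normalization. Scaling to the total called 9480 genes higher and 761 lower, 1 member lower, 9 loading factors higher and 6 regulators and costimulators higher, and it turned H2-Ke2 (0.014), Erap1 (0.026) and Rfxap (0.10). Without the 50 most abundant genes 2245 genes and 3 members were lower. Quantile normalization turned H2-K2 (-0.023), H2-M9 (-0.57), H2-Q10 (-0.36), H2-Q6 (-0.013), H2-Q7 (-0.11), H2-T10 (-0.14) and Rfxank (-0.12), none of them called. EdgeR and DESeq2 turned H2-Q10 (-0.078 and -0.095), H2-Q6 (-0.069 and -0.088) and H2-Q7 (-0.078 and -0.099). On the recovered reads edgeR called 3953 genes higher and 3608 lower. Why these values moved was not tested beyond the settings themselves.

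Leaving out 1 library at a time, loading factors higher ranged from 5 to 8, and the log2 fold changes of genes that turned, none of them called, ranged from -0.0050 to 0.52 for H2-M9, from -0.25 to 0.31 for H2-Q10, from -0.21 to 0.46 for H2-Q6, from -0.17 to 0.40 for H2-Q7 and from -0.0135 to 0.035 for Rfxank. Members higher ranged from 16 to 24 and members lower from 4 to 5.

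Without WT replicate 1, 2, 3 and 4, 1, 9, 3 and 3 members and 4, 43, 63 and 44 genes were higher in WT libraries of set A than of set B, and edgeR gave 4 and 25, settings chosen after seeing the data. The 3 class II chains were called in every setting. Pseudocounts of 1 and 0.01, no filter and TMM scaling changed no member's call. A minimum mean of 10 left out H2-M6-ps, H2-M9 and Cd80. Without 1 library the exact test of a ratio cannot go below 0.0571, so ratios were compared by size there. Depth limits Cd80, H2-M6-ps, H2-M9, H2-Ob, H2-DMb2, H2-Ke6 and H2-T10, each with at most 80 reads in either group.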

Other observations

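Presentation outside the H2 complex and the ligands beside it also moved, with values given here without a further reading. Of 5 MHC-like molecules analysed here, of 10 listed, 3 were higher in D84G muscle: Procr, the endothelial protein C receptor (log2 fold change 0.38 ± 0.13 SE, adjusted p = 0.0285, with overlap between the groups), Hfe, which controls iron uptake (log2 fold change 0.29 ± 0.05 SE, adjusted p = 7.18e-04), and Fcgrt, the neonatal Fc receptor (log2 fold change 0.25 ± 0.05 SE, adjusted p = 0.00246). Mr1, which presents bacterial vitamin B metabolites, and Cd1d1, which presents lipids, did not pass. Of 6 further ligands for T cells analysed here, of 8 listed, 3 were higher: Icosl (2.39-fold, adjusted p = 7.35e-06), Cd276 (1.92-fold, adjusted p = 4.70e-05) and the adhesion ligand Icam1 (1.66-fold, adjusted p = 0.00215). Cd274, or PD-L1, did not pass (log2 fold change 0.02 ± 0.38 SE, adjusted p = 0.976).

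For partners of the class II and class I promoter complex, 10 genes were listed apart from the Rfx genes. Where 25.0% of all genes were higher and 24.4% lower, none of the 10 was higher and 7 were lower. They included Nfyc, a subunit of NF-Y (log2 fold change -0.49 ± 0.06 SE, adjusted p = 5.60e-05), and the histone acetyltransferases Ep300 (log2 fold change -0.48 ± 0.05 SE, adjusted p = 1.31e-05), Crebbp (log2 fold change -0.41 ± 0.05 SE, adjusted p = 3.32e-05) and Kat2b (log2 fold change -0.31 ± 0.05 SE, adjusted p = 2.51e-04). These serve many other genes. The list also holds histone deacetylases: Hdac2 was lower (log2 fold change -0.26 ± 0.05 SE, adjusted p = 7.94e-04) and Hdac1 did not pass. Of 3 constitutive proteasome subunits replaced in the immunoproteasome, Psmb5 was higher (log2 fold change 0.39 ± 0.05 SE, adjusted p = 4.78e-05) and Psmb7 lower (log2 fold change -0.14 ± 0.04 SE, adjusted p = 0.0147). Of 6 muscle fiber markers 2 were higher and 4 lower, among them the most abundant, Myh4 (log2 fold change -1.05 ± 0.16 SE, adjusted p = 2.58e-04). Folds near 1 in this paragraph depend on the scaling, which shifted the median over all genes by as much as 0.35 (log2).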
